A study of Rattus norvegicus with 65 samples.

Results

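Atf4 and 9 genes that the transcription factor ATF4 is known to act on were followed across every condition of a study of drug toxicity in heart cells. They are Atf4, Trib3, Chac1, Asns, Psat1, Phgdh, Shmt2, Mthfd2, Slc7a11 and Slc7a5, taken by symbol from the gene counts, and all 10 were among the 14554 genes with counts. Cultured cardiomyocytes prepared from the hearts of newborn rats were sequenced after 6 or 24 hours with a drug or its solvent. The drugs were 5-fluorouracil (5FU, a uracil analogue that disturbs RNA and DNA synthesis) at 10 mM, acetaminophen (Ace, an analgesic) at 2.5 mM and doxorubicin (Dox, an anthracycline that binds DNA and topoisomerase II) at 1.25 µM. The solvent controls were DMSO1, with 1% DMSO for 5FU, and DMSO2, with 0.25% DMSO for Ace and Dox, so that every culture contained DMSO. The 5FU group and DMSO1 had 6 libraries at either time, Dox and DMSO2 had 7 at either time, and Ace had 6 at 6 hours but 7 at 24 hours. Cells from several litters were mixed before plating and starved of serum overnight before treatment, so replicate libraries come from parallel cultures rather than from separate animals, and p-values measure the spread between cultures. The question behind each comparison is how the cells' transcripts changed at a toxic dose of each drug, early and late.

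When a cell runs short of an amino acid, accumulates unfolded protein or meets other stresses, kinases phosphorylate the translation factor eIF2alpha, most translation slows, and translation of the Atf4 message increases. ATF4 then switches on amino acid transporters, enzymes of serine, glycine and asparagine synthesis and mitochondrial one-carbon enzymes, together with regulators such as TRIB3 that hold the response back. ATF4 protein depends largely on translation, and the counts here measure RNA only. In cardiomyocytes the same set of genes is known from mitochondrial stress, where serine and one-carbon enzymes are prominent.

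The 10 genes mostly fell with 5FU and with Dox. Here a gene is called changed when edgeR's quasi-likelihood test gives a Benjamini-Hochberg adjusted p (FDR) below 0.01 over all 14554 genes. With 5FU, 7 of the 10 were called lower at 6 hours, where 24.5% of all genes were, and 10 of 10 at 24 hours, where 27.8% of all genes were. None rose with 5FU at either time, against 23.4% of all genes at 6 hours and 28% at 24 hours. Ace gave 0 calls among the 10 at 6 hours in either direction (all genes: 16.5% higher, 15.2% lower), where edgeR gave 1 of the 10, Psat1, an unadjusted p below 0.05 (0.013), which 49.1% of all genes had, and DESeq2 also called 0. Psat1 was called, at -0.21, when only these 2 groups were fitted and without the 5 libraries described below. At 24 hours Ace lowered 4 of the 10 and raised none (all genes: 18.2% higher, 19.1% lower). Dox lowered 6 and raised 2 at each time, against 32.7% of all genes lower and 31.5% higher at 6 hours, and 41% lower and 40.4% higher at 24 hours. With Dox, Atf4, Trib3, Chac1 and Psat1 were called lower and Asns higher at both times, Slc7a11 was called lower at 6 hours and higher at 24 hours, and the other 4 genes were each called at 1 time only.

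**Figure D1:**
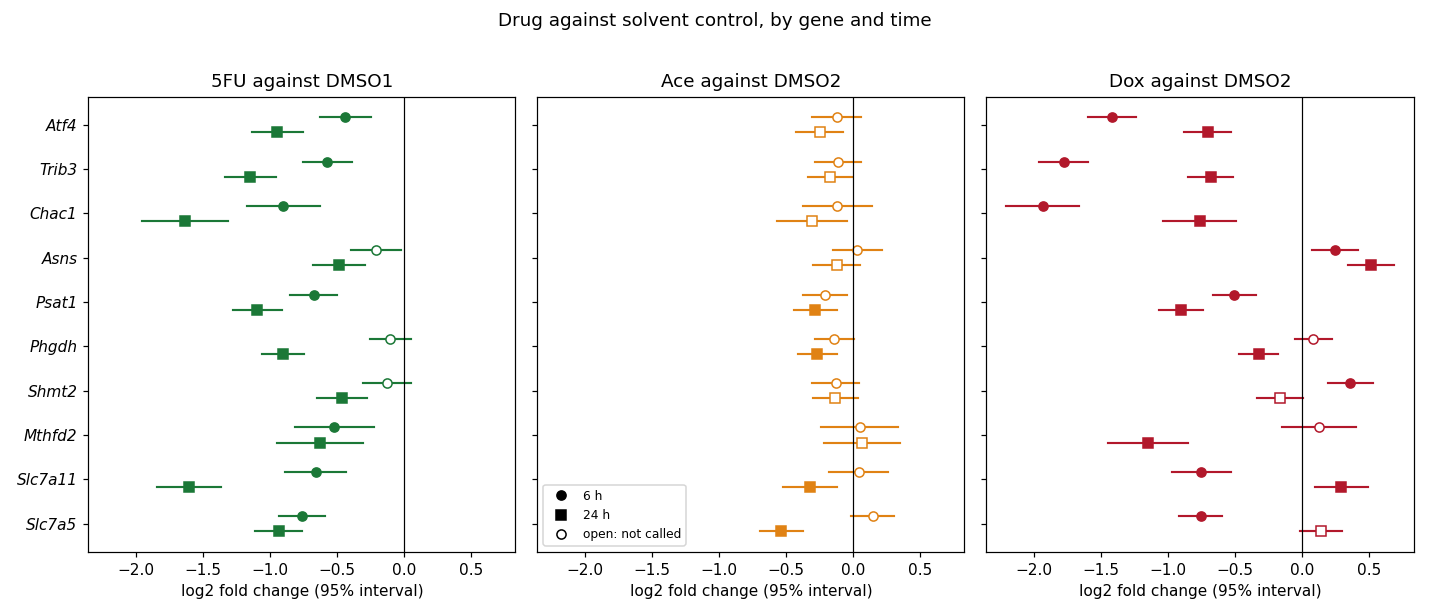
Log2 fold change of each of the 10 genes (rows) against the solvent control for 5FU, Ace and Dox (panels), with circles for 6 hours, squares for 24 hours, bars for the 95% interval, and filled symbols where FDR is below 0.01. All 20 values for 5FU lie left of 0, the Ace values lie close to 0, and the Dox values spread on both sides of it.

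The median log2 fold change of the 10 genes was -0.55 with 5FU at 6 hours and -0.94 at 24 hours, where the median of all genes was -0.0016 and -0.0094. With Ace it was -0.12 at 6 hours and -0.26 at 24 hours, and with Dox -0.63 and -0.50 with the median of all genes between -0.000816 and 0.00295. With 5FU, 14.1% of all genes lay below the median of the 10 at 6 hours and 10.1% at 24 hours. With Ace these shares were 33.3% and 22.1%, and with Dox 17.5% and 32.6%. Single values ran from -1.93 (Chac1, Dox, 6 hours) to 0.51 (Asns, Dox, 24 hours).

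Library totals ran from 14332827 to 25738297 counts. The lowest count of any of the 10 genes was 60, in Slc7a11, the gene whose values carry the most counting error. Replicate pairs all differed by more than sampling noise, with a chi-square per gene of at least 2.98 over 180 pairs. Libraries are numbered here in the order of the columns, as names only. Library 1 of DMSO1 at 24 hours stood apart: its Gdf15 was 58.5 CPM (counts scaled to the library total) where the other 5 lay between 6.14 and 7.54, and it held the lowest value of its group for 9 of the 10 genes. Over the 1490 genes that 5FU moved by a log2 fold change of at least 1 at that time, it lay at a position of 0.378 between the mean of the other controls at 0 and the 5FU mean at 1. Library 3 of DMSO1 and library 7 of Dox at 6 hours had 434 and 452 CPM of Acta2, below the other libraries of their groups, and library 7 of Dox at 24 hours had 59.3. The last of these also had the lowest value of its group for 8 of the 10 genes. Library 7 of Ace at 24 hours lay furthest from the other Ace libraries towards the control, at a position of 0.751 between the control mean at 0 and the mean of the other Ace libraries at 1. Where a call among the 10 genes changed without these 5 libraries, the value without them is given too. Library 1 of 5FU at 6 hours was not among them, though it lay at 1.19 where the others of its group lay at 0.943 to 0.982. Its Gdf15 was 235.6 CPM, against 77.46 to 129 CPM in the others. Without it alone, Asns with 5FU at 6 hours was called at -0.31, and Mthfd2 at 0.72 for the Ace effect minus the 5FU effect at 6 hours.

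Markers of cardiomyocytes were abundant in every group, with a summed level of 20090 to 62260 CPM over 9 genes, and none was at 0. Markers of fibroblasts (8 genes), endothelial cells (5), macrophages (6) and smooth muscle or pericytes (6) were also detected, with none at 0 in any group. The summed fibroblast level at 24 hours had a median of 16230 CPM in DMSO1 and 5634 CPM with 5FU. It was 16590 CPM in DMSO2, 7851 CPM with Ace and 3504 CPM with Dox. All 8 fibroblast genes were called lower with each drug at 24 hours. Of all genes, 27.8% were called lower there with 5FU, 19.1% with Ace and 41% with Dox. In these bulk samples, fewer cells of a type and less RNA per cell cannot be told apart, and the part of this shift in the levels below was not tested.

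Atf4, the regulator itself, was lowest with Dox at 6 hours. It measured 59.8 to 93.2 CPM there (median 68.8, 7 libraries) and 174.8 to 210.1 CPM in DMSO2 (median 183.6, 7 libraries). Every Dox library lay below every control library. The fit gave a log2 fold change of -1.42 ± 0.09 (SE), 2.67-fold lower, with an adjusted p of 7.30e-22. At 24 hours Dox libraries held 101.1 to 147.8 CPM against 174.7 to 234.5 CPM in DMSO2, again without overlap, and the fold change was smaller at -0.70 ± 0.09.

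With 5FU, Atf4 at 24 hours was 88.1 to 104 CPM (median 93.0) against 156.9 to 197.4 CPM in DMSO1 (median 182), with no overlap and a log2 fold change of -0.94 ± 0.10. At 6 hours the groups overlapped, with 158.2 to 212.4 CPM with 5FU and 158.1 to 311.9 CPM in DMSO1, and the log2 fold change was -0.44 ± 0.09 (adjusted p = 6.09e-05). That call was lost when only these 2 groups were fitted (adjusted p = 0.0133). With Ace the values were 162 to 176 CPM at 6 hours and 146.6 to 180.6 CPM at 24 hours, and neither difference from DMSO2 was called, at -0.12 (95% interval -0.31 to 0.06) and -0.25 (-0.43 to -0.07). At 24 hours Atf4 with Ace was called in some fits and not in others: its adjusted p was 0.0147 in the fit of all groups, 0.00118 with only these 2 groups and 0.00653 without the 5 libraries that stood apart. Over the 10 groups the mean level of Atf4 ran from 248.8 CPM in DMSO1 at 6 hours to 69.5 CPM with Dox at 6 hours, and every pair of neighbours in that order overlapped.

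**Figure D2:**
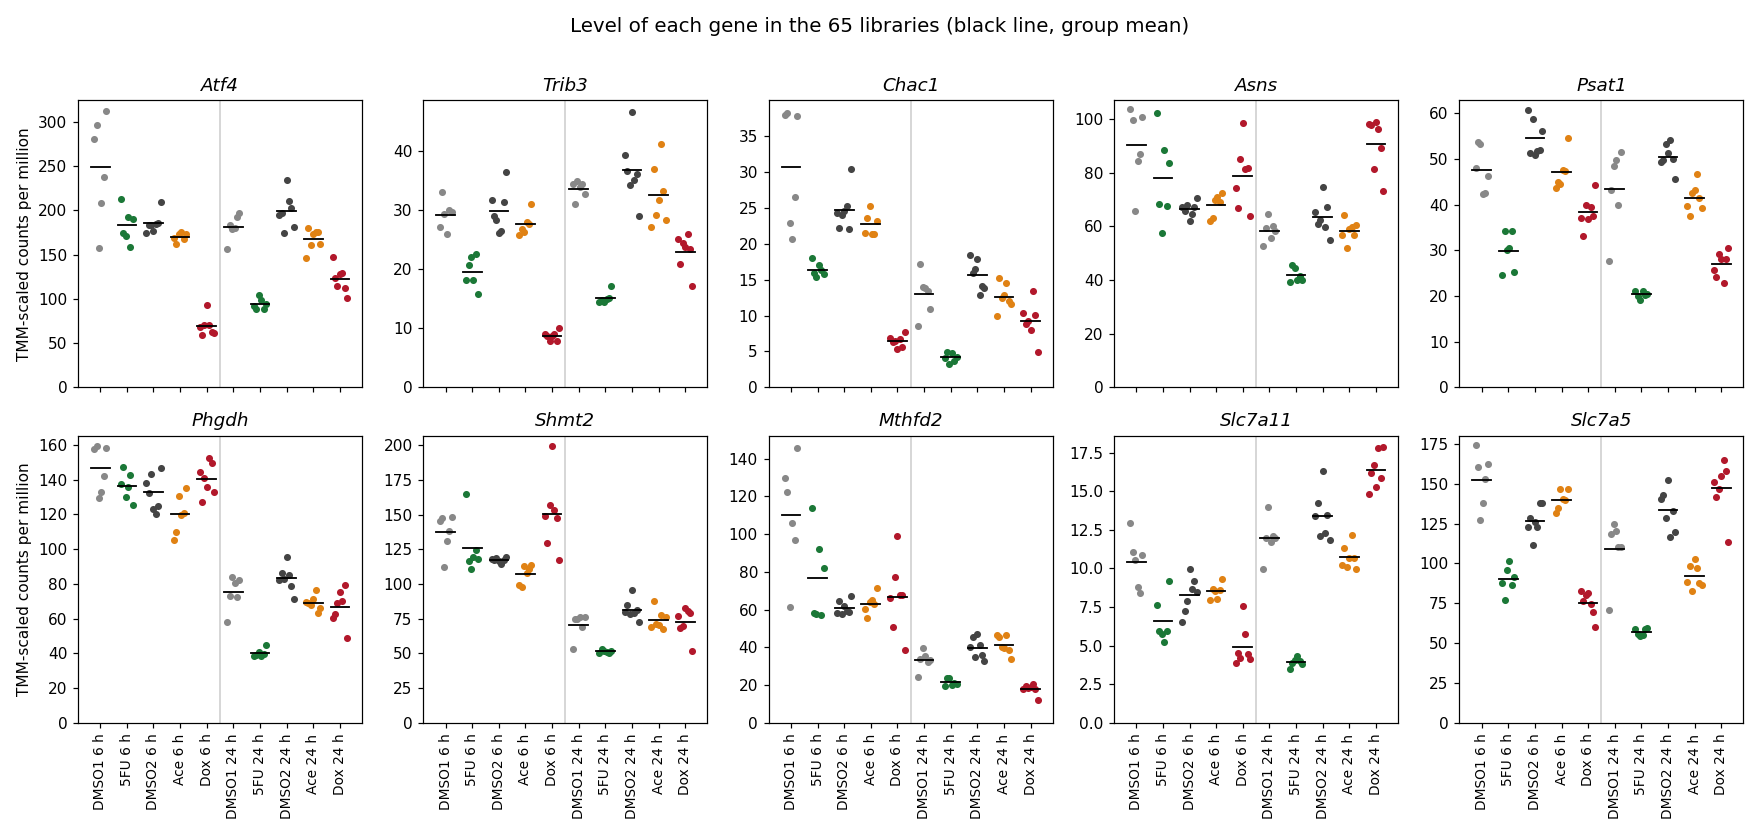
TMM-scaled CPM (vertical axes, linear from 0) of each of the 10 genes in all 65 libraries, by group, with a black line at each group mean and a grey line between 6 and 24 hours. Dox at 6 hours holds the lowest group mean for Atf4 and Trib3, Dox at 24 hours for Mthfd2, and 5FU at 24 hours for the other 7.

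Of the 10 genes, Trib3 and Chac1 followed Atf4 most closely, though genes outside the 10 came closer, such as Mios (0.91). TRIB3 is a pseudokinase that binds ATF4 and dampens the response, and CHAC1 degrades glutathione. Over the 10 group means of log2 CPM, the correlation with Atf4 was 0.88 for Trib3 and 0.87 for Chac1. These groups share controls and cell preparation, so the values are a description. Among the other 7 genes it ran from 0.13 for Shmt2 to 0.68 for Slc7a5.

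Trib3 fell to 7.82 to 10.1 CPM with Dox at 6 hours (median 8.71) from 26.2 to 36.4 CPM in DMSO2 (median 29.03). The groups were far apart, and the log2 fold change of -1.78 ± 0.09 is 3.42-fold lower. At 24 hours Trib3 was 17.1 to 25.97 CPM with Dox against 29 to 46.6 CPM in DMSO2, still without overlap, at -0.68 ± 0.08. With 5FU it was 15.8 to 22.6 CPM at 6 hours against 26.01 to 33.1 CPM in DMSO1, and 14.4 to 17.2 CPM at 24 hours against 30.99 to 34.8 CPM. Neither pair of groups overlapped, and the log2 fold changes were -0.57 ± 0.09 and -1.14 ± 0.09. With Ace, Trib3 was not called, at -0.11 ± 0.09 and -0.18 ± 0.08.

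Chac1 had the widest range of the 10 genes, with 7.02-fold between its highest and lowest group mean. With Dox at 6 hours it was 5.32 to 7.76 CPM (median 6.46) against 22.04 to 30.4 CPM in DMSO2 (median 24.3), without overlap. The log2 fold change was -1.93 ± 0.14, 3.82-fold lower. With 5FU at 24 hours it was 3.28 to 4.93 CPM (median 4.17) against 8.48 to 17.1 CPM in DMSO1 (median 13.7), at -1.63 ± 0.16. The lowest DMSO1 value belonged to library 1, and the groups stayed apart with it included. Chac1 with Dox at 24 hours overlapped its control by 1 library, with 4.92 to 13.4 CPM against 12.9 to 18.4 CPM and a log2 fold change of -0.77 ± 0.13. With 5FU at 6 hours it was 15.4 to 18.02 CPM against 20.6 to 38.2 CPM, at -0.90 ± 0.13.

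ATF4 pairs with C/EBP factors on a composite element, and the letters TGATGNAA were searched on both strands in the 300 bases around the start of each gene (250 before it, 50 from it on; RefSeq, GRCr8). All 10 genes had such a window. The letters were found in 2 of the 10, which are Trib3 and Chac1, and in 3.98% of all 33469 windows. The palindrome TGACGTCA, the core of the cyclic AMP response element, was in 0 of the 10 and in 1.83% of all windows. The stretches around the 2 matches are shown, read 5′ to 3′ on the strand of the gene with the match in capitals. Both matches lie on the strand opposite to the gene, so the letters appear as their reverse complement, beginning 21 bases before the start of Trib3 (chr3:161275534-161275580, minus strand) and 167 bases before that of Chac1 (chr3:126795938-126795997, plus strand).
Trib3: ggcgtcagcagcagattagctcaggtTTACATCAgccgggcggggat
Chac1: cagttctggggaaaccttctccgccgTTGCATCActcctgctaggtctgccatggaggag
A match of letters is not a measured binding site, and its absence in the other 8 windows says only that these letters are not in them.

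Asns, which makes asparagine from aspartate, went against Atf4 with Dox. At 24 hours it was 73.2 to 98.8 CPM with Dox (median 96.4) against 54.9 to 74.8 CPM in DMSO2 (median 62.6). Only library 7 of Dox, the one that stood apart, lay within the control range. The log2 fold change was 0.51 ± 0.09, 1.42-fold higher, with an adjusted p of 2.36e-07. At 6 hours Asns was 63.8 to 98.5 CPM with Dox and 62.1 to 70.7 CPM in DMSO2, and the call (0.24 ± 0.09) was lost with library size as the only scaling, where the value was 0.09, and on leaving out any of 10 libraries, with values of 0.18 to 0.29 over all 14 such fits. With 5FU Asns was 39.1 to 45.5 CPM at 24 hours against 52.8 to 64.6 CPM in DMSO1, without overlap, at -0.49 ± 0.10. At 6 hours with 5FU it was -0.21 ± 0.09 and not called (adjusted p = 0.0466), and it was called at -0.29 without the 5 libraries. With Ace the differences were 0.03 (95% interval -0.15 to 0.21) at 6 hours and -0.12 (-0.30 to 0.05) at 24 hours.

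Phgdh and Psat1 encode successive enzymes of serine synthesis from a glycolytic intermediate. Psat1 was lower with both 5FU and Dox at both times, and all 4 pairs of groups were without overlap. With 5FU at 24 hours it was 19.04 to 21.2 CPM (median 20.3) against 27.7 to 51.6 CPM in DMSO1 (median 45.9), at -1.09 ± 0.09. With Dox at 24 hours it was 22.9 to 30.6 CPM against 45.6 to 54.2 CPM in DMSO2, at -0.90 ± 0.08. The values at 6 hours were -0.68 ± 0.09 with 5FU and -0.51 ± 0.08 with Dox. Ace gave -0.28 ± 0.08 at 24 hours, with 37.5 to 46.6 CPM, which overlapped the control and was not called with library size as the only scaling.

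Phgdh was lower at 24 than at 6 hours in every group. In the controls it was 120.1 to 159.3 CPM at 6 hours and 58.3 to 95.3 CPM at 24 hours. At 6 hours none of the drugs changed it by a called amount, with 5FU at -0.10 ± 0.08, Ace at -0.14 ± 0.07 and Dox at 0.08 ± 0.07. At 24 hours 5FU libraries held 38.4 to 44.6 CPM (median 39.3) against 58.3 to 83.7 CPM in DMSO1 (median 76.9), without overlap, at -0.90 ± 0.08 or 1.87-fold lower. The falls with Ace (-0.27 ± 0.07) and Dox (-0.32 ± 0.07) at 24 hours were smaller and their groups overlapped DMSO2. The fall with Ace was not called with library size as the only scaling (-0.21, adjusted p = 0.0142). The reference lists 6 pseudogene copies of Phgdh and 1 each of Psat1 and Shmt2, none of which has counts of its own here, so reads from them, if any, cannot be told from those of the gene.

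Shmt2 and Mthfd2 act one after the other on serine-derived one-carbon units in mitochondria. Their group means correlated at 0.89 over the 10 groups, and Shmt2 with Phgdh at 0.98. Shmt2 was 50.1 to 53.4 CPM with 5FU at 24 hours (median 51.4) and 53.4 to 76.4 CPM in DMSO1 (median 74.8), at -0.46 ± 0.09. The lowest DMSO1 value was library 1, the next lowest was 69.1 CPM, and the difference was called with and without it. With Dox at 6 hours Shmt2 was 117.6 to 199.3 CPM against a narrow 114.3 to 119.6 CPM in DMSO2, at 0.36 ± 0.08, and this call was lost with library size as the only scaling (0.20, adjusted p = 0.0244). That scaling moved the median of all genes by -0.15 in this comparison. Shmt2 overlaps Ndufa4l2 in the reference, which also has counts.

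Mthfd2 fell with Dox at 24 hours to 12.2 to 20.7 CPM (median 18.7) from 32.7 to 47.3 CPM in DMSO2 (median 39.99), without overlap. The log2 fold change of -1.15 ± 0.15 is 2.22-fold lower. At 6 hours the Dox libraries ranged from 38.8 to 99.0 CPM around a control range of 57.5 to 67.4 CPM, and the difference of 0.13 had a 95% interval of -0.15 to 0.40. With 5FU at 24 hours Mthfd2 was 19.7 to 24.0 CPM against 24.1 to 39.9 CPM, at -0.62 ± 0.16. At 6 hours with 5FU it was 57.2 to 113.8 CPM against 61.3 to 145.5 CPM, at -0.52 ± 0.15, and this was not called when only these 2 groups were fitted (adjusted p = 0.0424) or without library 6 of DMSO1. With Ace, Mthfd2 differed by 0.05 ± 0.14 at 6 hours and 0.07 ± 0.14 at 24 hours.

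The 6-hour values of Asns and Mthfd2 were uneven between libraries of DMSO1, of 5FU and of Dox, and those of Atf4 were most uneven in DMSO1. For Mthfd2 the SD was 29.55, 23.34 and 19.05 CPM in these groups, against 3.715 in DMSO2 and 5.289 with Ace. In DMSO1 these genes were uneven together with Acta2, the smooth muscle actin gene, and Nppb, a natriuretic peptide gene that rises with stretch and hypertrophy. In DMSO1 at 6 hours library 6 had 2557 CPM of Acta2, 883.2 of Nppb, 311.9 of Atf4 and 145.5 of Mthfd2. Library 3 of the same group had 434 CPM of Acta2, 30.7 of Nppb, 158.1 of Atf4 and 61.3 of Mthfd2, within the DMSO2 range for Acta2, Nppb and Mthfd2 and below it for Atf4. In 5FU at 6 hours libraries 1, 4 and 6 had 1191 to 1361 CPM of Acta2 and 82.3 to 113.8 of Mthfd2, and the other 3 had 553.5 to 587.7 and 57.2 to 58.1. Nppb did not follow them there: library 1, highest in both genes, had the lowest Nppb of the group at 107.6 CPM. The part of this variation in the comparisons at 6 hours was not tested. Of the 7 Dox libraries at 6 hours, 6 had 1300 to 1725 CPM of Acta2 beside 59.8 to 93.2 CPM of Atf4.

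**Figure D3:**
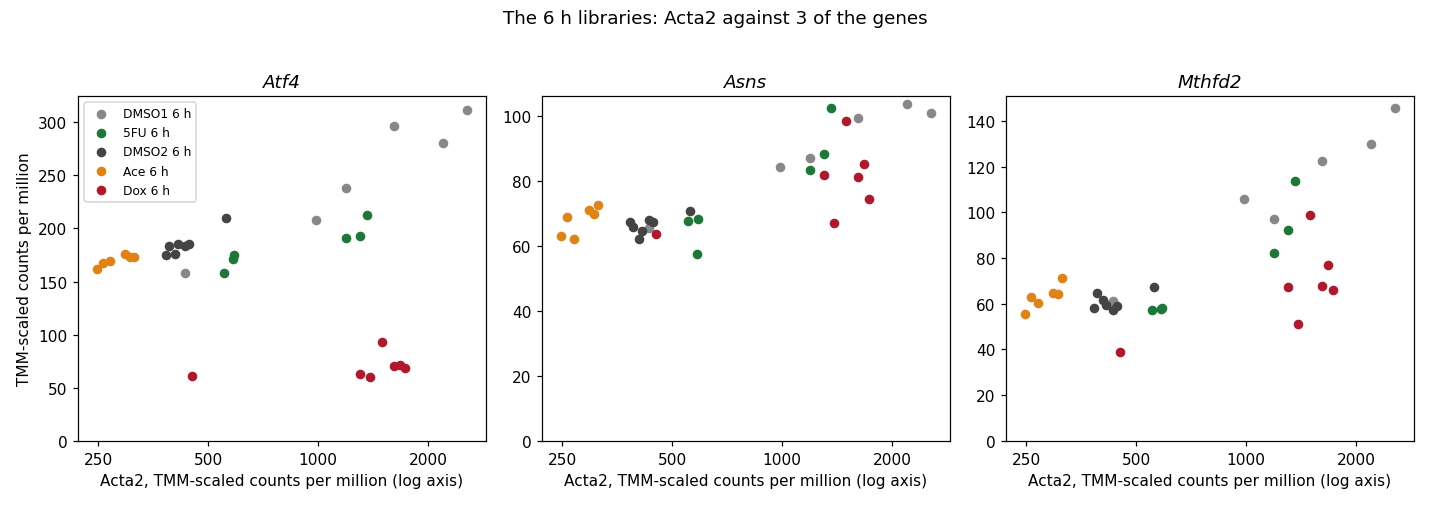
CPM of Atf4, Asns and Mthfd2 (panels, vertical axes from 0) against CPM of Acta2 (horizontal log axis) in the 32 libraries taken at 6 hours, coloured by group. The DMSO1 libraries run from the DMSO2 range at 434 CPM of Acta2 up to 2557 CPM, with higher values of all 3 genes, while the Dox libraries lie apart for Atf4.

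Slc7a11 and Slc7a5 encode the transporters that exchange cystine for glutamate and import large neutral amino acids. Slc7a11 had its lowest and its highest group mean at 24 hours. With 5FU it was 3.52 to 4.31 CPM (median 3.94) against 9.94 to 14.01 CPM in DMSO1 (median 11.96), far apart, at -1.60 ± 0.12 or 3.03-fold lower. With Dox it was 14.8 to 17.9 CPM (median 16.2) against 11.8 to 16.3 CPM in DMSO2 (median 13.4), at 0.29 ± 0.10. The Dox call had an adjusted p of 0.00535 and was lost without library 3, 5 or 7 of DMSO2 and without the 5 libraries that stood apart (0.27, adjusted p = 0.0127).

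At 6 hours Slc7a11 was lower with both drugs, at 3.90 to 7.57 CPM with Dox against 6.55 to 9.95 CPM in DMSO2 (-0.75 ± 0.11), and at 5.24 to 9.17 CPM with 5FU against 8.41 to 12.96 CPM in DMSO1 (-0.66 ± 0.11). Both pairs overlapped. With Ace it was 0.04 ± 0.11 at 6 hours and -0.32 ± 0.10 at 24 hours, and the call at 24 hours was lost on leaving out any of 7 libraries, with library size as the only scaling and without the 5 libraries that stood apart. The values were -0.35 to -0.27 over the 14 leave-one-out fits, -0.26 with that scaling and -0.30 without the 5 libraries (adjusted p = 0.0123).

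Slc7a5 was the only 1 of the 10 genes called with Ace whose groups did not overlap. At 24 hours it was 83.0 to 103.1 CPM with Ace (median 88.6) and 116.7 to 152.5 CPM in DMSO2 (median 132.8), at -0.54 ± 0.08. At 6 hours the same contrast was 0.14 ± 0.08, with 131.9 to 146.9 CPM against 111.8 to 138.2 CPM, and was not called. With 5FU, Slc7a5 was 77.3 to 101.8 CPM at 6 hours against 127.4 to 174.2 CPM in DMSO1 (-0.76 ± 0.09), and 54.3 to 59.7 CPM at 24 hours against 71.0 to 124.6 CPM (-0.93 ± 0.09), without overlap at either time. With Dox it was 60.2 to 82.9 CPM at 6 hours, below every DMSO2 library (-0.76 ± 0.08). At 24 hours it was 113.3 to 164.9 CPM, not called at 0.14 ± 0.08, and called at 0.22 without library 7 of Dox and at 0.20 without the 5 libraries.

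The pairs of groups without overlap numbered 4 of 10 genes with 5FU at 6 hours and 9 of 10 at 24 hours, where 28.2% and 42.9% of all genes had none. For Dox they were 5 of 10 and 4 of 10, against 42.6% and 68.2% of all genes. For Ace they were 1 of 10 at each time, against 24.5% and 26.9%. The share for Dox at 24 hours is thus below that of all genes, and the share for 5FU at 24 hours is above it.

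The change of each drug's effect between times was tested in the same model. For 5FU the log2 fold change at 24 hours was lower than at 6 hours, a larger fall, in 6 of the 10 genes. It was higher in none (19.2% of all genes were called lower). The 6 were Slc7a11 (difference of log2 fold changes -0.94 ± 0.16), Phgdh (-0.80 ± 0.11), Chac1 (-0.73 ± 0.21), Trib3 (-0.57 ± 0.13), Atf4 (-0.50 ± 0.13) and Psat1 (-0.42 ± 0.13). The call for Psat1 was lost on leaving out any of 5 libraries, when only these 4 groups were fitted and with library size as the only scaling, and Shmt2 was called in addition without the 5 libraries that stood apart (-0.36, adjusted p = 0.00359). For Ace only Slc7a5 changed (-0.68 ± 0.11), where 6.06% of all genes were called lower.

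With Dox the genes went both ways. Atf4, Trib3, Chac1 and the transporters had a higher effect at 24 hours in 5 genes (34% of all genes were called higher): Chac1 (1.17 ± 0.19), Trib3 (1.09 ± 0.12), Slc7a11 (1.04 ± 0.15), Slc7a5 (0.90 ± 0.11) and Atf4 (0.71 ± 0.13). The serine and one-carbon enzymes went the other way in 4 genes (30.8% of all genes were called lower): Mthfd2 (-1.28 ± 0.20), Shmt2 (-0.52 ± 0.12), Phgdh (-0.41 ± 0.10) and Psat1 (-0.40 ± 0.11). Asns, at 0.27 ± 0.12, was not called. The median of all genes in this contrast was 0.07, and 0.27 with library size as the only scaling. Under that scaling Psat1 (-0.20), Phgdh (-0.20) and Shmt2 (-0.31) were no longer called, Mthfd2 still was, and Asns was called at 0.47.

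**Figure D4:**
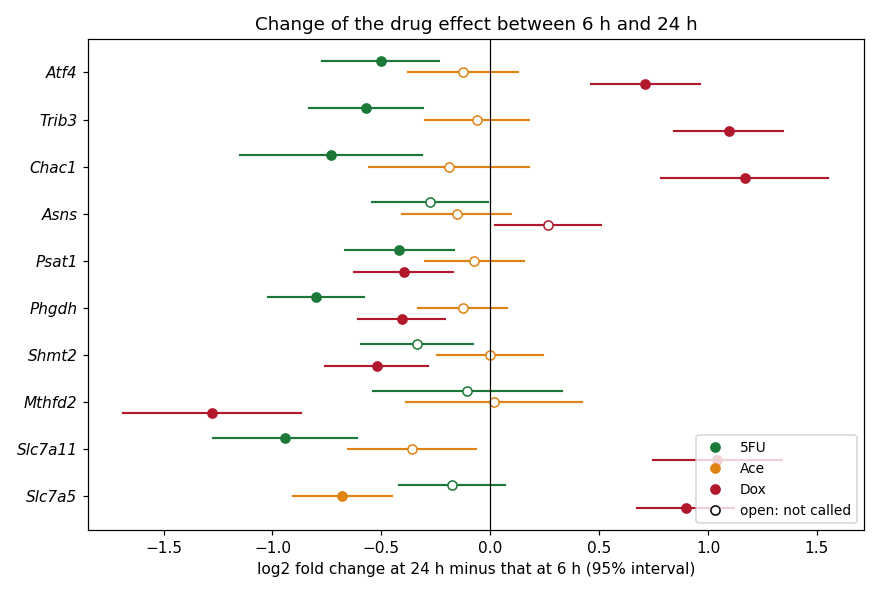
Log2 fold change at 24 hours minus that at 6 hours (horizontal axis, 95% interval) for the 10 genes (rows) and the drugs 5FU (green), Ace (orange) and Dox (red), filled where FDR is below 0.01. For Dox, Atf4, Trib3, Chac1, Slc7a11 and Slc7a5 lie right of 0 and Psat1, Phgdh, Shmt2 and Mthfd2 lie left of it, while the 5FU values all lie left.

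The effects of the drugs were also set against each other at each time. Dox and Ace share a control, so their libraries were compared directly. At 6 hours Dox was lower than Ace in 6 genes (31.4% of all genes) and higher in 2 (30.6%), which were Shmt2 (0.49 ± 0.09) and Phgdh (0.22 ± 0.07). Phgdh was not called with library size as the only scaling (0.10) or on leaving out any of 5 libraries, and Asns was called in addition without the 5 libraries that stood apart (0.26). At 24 hours it was lower in 5 genes (39.9%), led by Mthfd2 (-1.22 ± 0.15), and higher in 3 (40.7%), which were Slc7a5 (0.68 ± 0.08), Asns (0.63 ± 0.09) and Slc7a11 (0.61 ± 0.10). Among the 5 lower genes the call for Chac1 was lost without library 7 of Dox (-0.32, adjusted p = 0.0189).

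Each 5FU effect is relative to DMSO1 and the other effects are relative to DMSO2. At 6 hours the Dox effect was below the 5FU effect in Atf4 (-0.98 ± 0.13), Trib3 (-1.20 ± 0.13) and Chac1 (-1.03 ± 0.19), 3 of 10 where 24% of all genes were. It was above it in Asns (0.45 ± 0.13), Shmt2 (0.48 ± 0.12) and Mthfd2 (0.65 ± 0.20), 3 of 10 where 22% of all genes were. Asns and Mthfd2 were not called there when only these 4 groups were fitted, nor Mthfd2 on leaving out any of 6 libraries or with library size as the only scaling (0.56, adjusted p = 0.0111). At 24 hours the Dox effect was above the 5FU effect in 6 genes (35.8% of all genes), with the largest difference in Slc7a11 (1.89 ± 0.16), and Atf4 itself did not differ by a called amount (0.24, 95% interval -0.02 to 0.50), though it was called at 0.33 without the 5 libraries that stood apart, as was Shmt2 at 0.44. Mthfd2 went the other way, at -0.53, and was not called (adjusted p = 0.0261). It was called at -0.55 when only these 4 groups were fitted.

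The Ace effect was above the 5FU effect in 5 genes at 6 hours (17.1% of all genes) and in 8 genes at 24 hours (19.1%), at most 0.90 ± 0.12 for Slc7a5 at 6 hours and 1.32 ± 0.21 for Chac1 at 24 hours. Without the 5 libraries Atf4 (0.42) and Mthfd2 (0.70) were called in addition at 6 hours, and Asns (0.39) and Shmt2 (0.40) at 24 hours. At 24 hours the call for Mthfd2 was lost on leaving out any of 4 libraries, and that for Slc7a5 without library 3 of DMSO1.

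Most of these genes also differed between 6 and 24 hours in the controls, where time in culture and time in DMSO cannot be told apart. In the 2 control groups together, 24 against 6 hours, 6 of the 10 were lower (31.9% of all genes) and 2 higher (32.7%). The largest falls were in Mthfd2 (-1.18 ± 0.10), Chac1 (-0.95 ± 0.09), Phgdh (-0.82 ± 0.05) and Shmt2 (-0.74 ± 0.06). Slc7a11 (0.44 ± 0.07) and Trib3 (0.25 ± 0.06) rose. Atf4, at -0.18 ± 0.06, was not called in the fit of all libraries, and was called on leaving out any of 7 control libraries, after filterByExpr, edgeR's filter on low counts (-0.19), and without the 5 libraries that stood apart (-0.20).

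These values pool DMSO1 and DMSO2, which went opposite ways in Atf4 and Slc7a5. The mean level of Atf4 was 248.8 CPM at 6 hours and 181.5 CPM at 24 hours in DMSO1, and 185.6 and 199.5 CPM in DMSO2. That of Slc7a5, one of the 6 called lower, was 152.6 and 109.2 CPM in DMSO1 and 126.9 and 133.4 CPM in DMSO2. The means of the other 8 genes moved the same way in both controls. The difference between the controls over time was not tested.

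DMSO1 and DMSO2 differed in 3 of the 10 genes at 6 hours. DMSO1 was above DMSO2 in Mthfd2 (0.85 ± 0.14), Asns (0.44 ± 0.09) and Atf4 (0.42 ± 0.09), where 9.87% of all genes were called higher, and the groups overlapped for all 3. For Mthfd2 and Asns only library 3 of DMSO1 lay in the range of DMSO2, and for Atf4 library 4 did, with library 3 below it. The call for Atf4 was lost when only these 2 groups were fitted (adjusted p = 0.0196), and without the 5 libraries that stood apart 7 of the 10 were called, 6 of them higher, where 23.1% of all genes were called in either direction. At 24 hours 0 of the 10 were called by edgeR, where 0.433% of all genes were called in either direction. An unadjusted p below 0.05 was found in 3 of the 10 and in 16.3% of all genes. The lowest was 0.00079, for Slc7a5 at -0.29 ± 0.08, and 0 of the 10 were called by DESeq2.

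The genes whose pattern over the 10 group means was most like each of the 10 were ranked by Pearson correlation among 10499 named genes whose mean count reached 100. The other 9 genes were left out of each ranking, and the values are descriptions over 10 points that share controls. For Atf4 they were Mios (0.91), Rhbdd1 (0.91) and Extl2 (0.91), and for Trib3 Lsm10 (0.95), Btg1 (0.95) and Vps13d (0.94). For Chac1 they were Xbp1 (0.96), Msantd3 (0.95) and Arcn1 (0.94), with Xbp1, a transcription factor of the unfolded protein response, also first over the 65 libraries (0.91). For Asns they were Cdv3l1 (0.95), Col7a1 (0.95) and Gtpbp4 (0.95).

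For Psat1 the nearest genes were Arrb1 (0.96), Hnrnpr (0.95) and Slc4a3 (0.94). Phgdh was followed by Tlcd3a, Fbln2 and Cdkn2a (0.99 each) and Shmt2 by Hmgb1-ps33, Il12rb2 and Fbln2 (0.98 each), so that Fbln2 is near to both. For Mthfd2 they were Srebf2 (0.98), Bcs1l (0.97) and Fads2 (0.97). Srebf2 and Fads2 belong to sterol and fatty acid synthesis, and Srebf2 was also first over the 65 libraries (0.94). For Slc7a11 they were Utrn (0.94), Csnk2a2 (0.92) and Dlgap4 (0.92), and for Slc7a5 Srbd1 (0.95), Lgr4 (0.93) and Samd1 (0.92). Rhbdd1 (Atf4), Btg1 (Trib3), Gtpbp4 (Asns), Hnrnpr (Psat1) and Utrn (Slc7a11) were also first over the 65 libraries. Other neighbours ranked far lower there, such as Hmgb1-ps33 at 157 and Dlgap4 at 148. By Spearman rank correlation over the group means, Mios, Rhbdd1 and Extl2 ranked only 183, 345 and 226 for Atf4.

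Upstream of ATF4, transcripts of most eIF2alpha kinases rose with Dox. There 3 of the 4 kinase genes were higher at 6 hours (31.5% of all genes) and 3 at 24 hours (40.4%), and none was lower. Eif2ak2 (PKR, known for sensing double-stranded RNA) was 143.9 to 205.2 CPM with Dox at 6 hours against 61.8 to 76.0 CPM in DMSO2, at 1.33, and 295.3 to 388.2 CPM against 69.1 to 75.9 CPM at 24 hours, at 2.11 ± 0.08. Eif2ak1 (HRI, the kinase that relays heme shortage and mitochondrial stress) was 218.6 to 289.2 CPM with Dox at 24 hours against 56.7 to 63.6 CPM, at 1.99 ± 0.04. Neither gene's Dox libraries overlapped the control at 24 hours. At 6 hours Eif2ak2 was also called higher with 5FU (0.36 ± 0.08).

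Eif2ak3 (PERK, the kinase of the endoplasmic reticulum) was higher at 6 hours with all drugs, at 0.62 ± 0.05 with 5FU, 0.27 with Ace and 0.53 with Dox. At 24 hours it was lower with 5FU (-0.28) and Ace (-0.29) and higher with Dox (0.27). Eif2ak4 (GCN2, the kinase that senses uncharged tRNA) moved least, with 0.29 ± 0.05 for Ace and -0.20 for 5FU at 6 hours as its only calls. These are transcript levels, and kinase activity was not measured.

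A list of 12 genes held those of eIF2, eIF2B and the eIF2alpha phosphatase, with Nck1 and Dnajc3 beside them. Of these 12, Dox raised 7 and lowered 3 at 6 hours and raised 6 and lowered 4 at 24 hours. The stress-induced phosphatase subunit Ppp1r15a was 102.2 to 234.5 CPM with Dox at 24 hours against 31.2 to 42.3 CPM in DMSO2, at 2.27 ± 0.12. Its constitutive counterpart Ppp1r15b rose by 1.53 ± 0.05 in the same comparison, Eif2s1 (eIF2alpha itself) by 0.99 ± 0.06, and Eif2b4 fell by 0.82. With 5FU 2 rose and 2 fell at 6 hours, while 5 rose and 2 fell at 24 hours. Ace raised 1 and lowered 1 at 6 hours, and raised 1 and lowered none at 24 hours.

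Of the 8 partners of ATF4 and related factors, Dox at 24 hours raised 5 and lowered 3. Atf3, itself a stress-induced factor, was 22.3 to 57.1 CPM with Dox against 3.31 to 4.48 CPM in DMSO2 (3.33 ± 0.18), and Ddit3 (CHOP, which is linked to cell death) was 116.1 to 143.6 CPM against 31.5 to 42.04 CPM (1.77). Cebpb (0.86), Cebpg (0.83) and Batf3 (1.93 ± 0.25) also rose, Batf3 from 0.114 to 0.582 CPM in DMSO2. Atf5 fell to 40.1 to 58.8 CPM from 180.7 to 205.9 CPM (-1.85 ± 0.09), Nupr1 to 1.74 to 5.14 CPM from 22.3 to 31.8 CPM (-2.67 ± 0.13), and Jdp2 by 0.87. At 6 hours, when Dox lowered Atf4, Trib3 and Chac1 more, Atf3 was the only 1 of the 8 called higher (1.44 ± 0.18), Ddit3 was not called (0.0031), and Atf5 (-0.33), Jdp2 (-0.62) and Nupr1 (-1.18) were lower.

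With 5FU, 3 of these 8 rose at 6 hours and none fell, led by Atf3 at 2.19, and at 24 hours none rose and 4 fell, led by Nupr1 (-1.19) and Atf5 (-1.10). With Ace 3 rose and 1 fell at 6 hours, and 2 rose (Atf3 at 1.09, Ddit3 at 0.70) and 3 fell at 24 hours. Nupr1 was called lower with Ace at both times (-0.65, -0.99).

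The other enzymes of serine, one-carbon, proline and amino group metabolism numbered 16. With 5FU 5 were lower and 2 higher at 6 hours, and 7 lower and 5 higher at 24 hours. Pycr1, the last step of proline synthesis, was 2.84 to 3.67 CPM with 5FU at 24 hours against 6.23 to 19.2 CPM in DMSO1, at -2.12 ± 0.14. Aldh1l2, which oxidizes a formyl folate in mitochondria, was 10.2 to 11.5 CPM with 5FU at 24 hours against 26.2 to 66.3 CPM (-2.35). It was also lower with Ace (-1.42) and with Dox (-2.84 ± 0.13) at that time, while its cytosolic relative Aldh1l1 rose with Dox (2.21 ± 0.17).

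Dox raised 5 and lowered 5 of the 16 at 6 hours and raised 4 and lowered 9 at 24 hours, and Ace lowered 2 and raised none at 6 hours and lowered 6 and raised 1 at 24 hours. Aldh18a1 was called at -2.15 with Dox at 24 hours but with an SE of 0.73, and its level ranged from 3.58 to 71.4 CPM within DMSO2 alone.

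Amino acid transporters other than Slc7a11 and Slc7a5 mostly fell with 5FU. Of 14, 11 were lower at 6 hours (24.5% of all genes) and 9 at 24 hours (27.8%). At each time 1 was higher (23.4% and 28% of all genes), and the median was -0.61 and -0.46. Slc1a5, a glutamine transporter, was 9.25 to 13.4 CPM with 5FU at 24 hours against 20.8 to 50.6 CPM (-2.02 ± 0.13), and Slc7a3, an arginine and lysine transporter, was at -2.09 ± 0.21. Ace lowered 7 and raised 1 at each time. Dox lowered 8 and raised 4 at 6 hours and lowered 7 and raised 4 at 24 hours, and the largest single change of the list was a rise: Slc43a2, a transporter of large neutral amino acids like Slc7a5, reached 156.2 to 232 CPM at 24 hours from 10.1 to 12.9 CPM (3.94 ± 0.08, 15.4-fold). Slc38a4 fell in that comparison (-2.52 ± 0.10).

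Of 20 cytosolic aminoacyl-tRNA synthetases, enzymes that charge tRNA and are known ATF4 targets in part, 5FU lowered 12 and raised 1 at 6 hours and lowered 9 and raised 4 at 24 hours. Ace lowered 3 and raised none at 6 hours and lowered 4 and raised 1 at 24 hours. Dox raised 7 (31.5% of all genes) and lowered 3 (32.7%) at 6 hours. At 24 hours it raised 3 (40.4%) and lowered 8 (41%). The largest changes were with Dox at 24 hours, in Lars1 (28.6 to 40.7 CPM against 114.8 to 127.5 CPM, -1.76 ± 0.08), Iars1 (-1.43 ± 0.09), Aars1 (-1.12 ± 0.08) and Rars1 (1.01 ± 0.07). In the controls 16 of the 20 were lower at 24 than at 6 hours (31.9% of all genes). In DMSO1 at 6 hours 11 were above DMSO2 (9.87% of all genes) and none below.

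**Figure D5:**
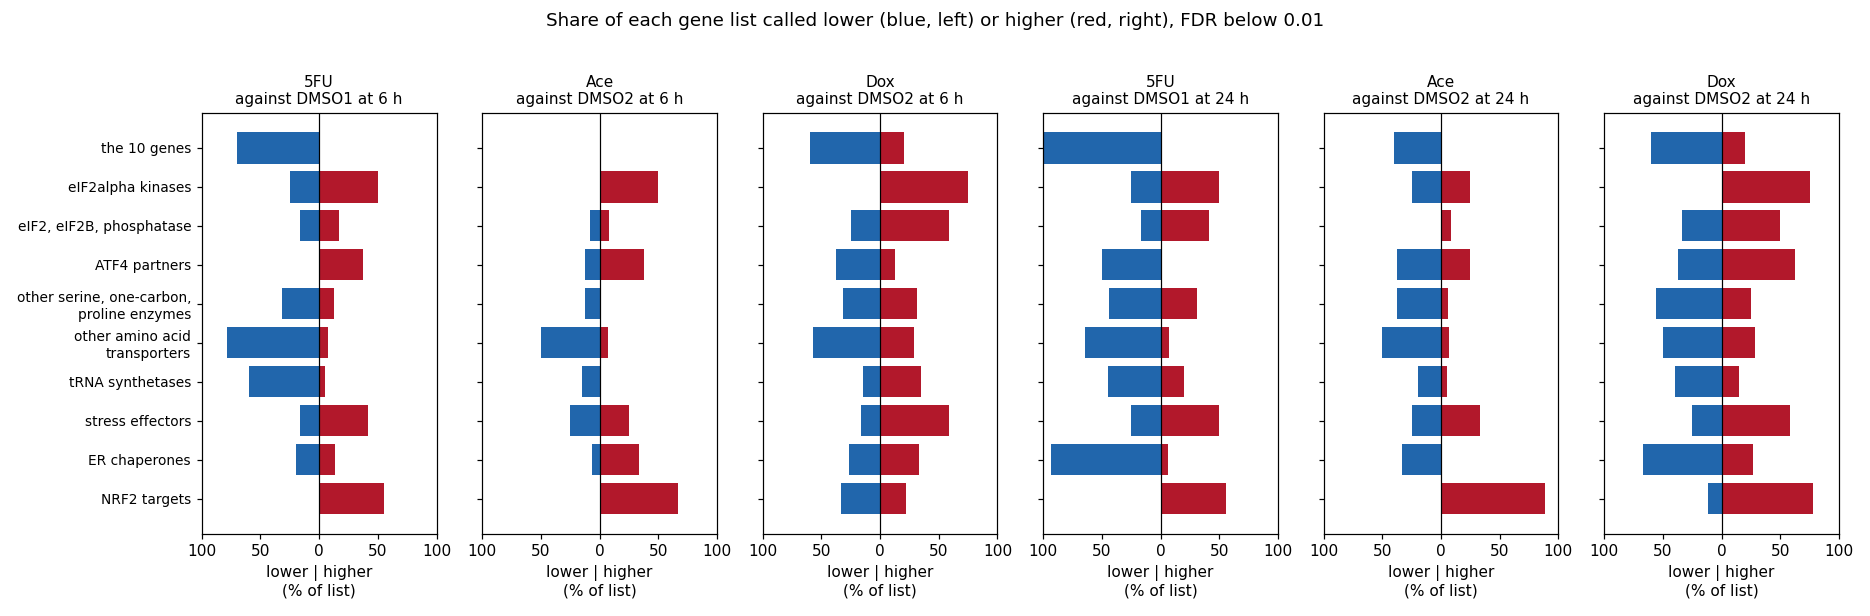
Share of each gene list called lower (blue, to the left) or higher (red, to the right) at FDR below 0.01 in the 6 drug comparisons (panels), in percent of the list's genes with counts. Of the 10 genes (top row), 7 and 10 are called lower with 5FU at 6 and 24 hours, 0 and 4 with Ace, and 6 lower and 2 higher with Dox at each time, while the NRF2 targets are mostly called higher in every panel but Dox at 6 hours.

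Stress effectors downstream of ATF4, several of which also answer to p53, moved in both directions. Of 12 such genes 5FU raised 5 and lowered 2 at 6 hours and raised 6 and lowered 3 at 24 hours, and Dox raised 7 and lowered 2 and then raised 7 and lowered 3. Gdf15, a secreted stress cytokine, was 168.7 to 447.3 CPM with Dox at 24 hours against 6.27 to 8.24 CPM in DMSO2 (5.403 ± 0.31). Cdkn1a (p21, a p53 target) rose by 3.44 ± 0.23 and Sesn2 by 1.64 ± 0.09 there, and Vldlr fell with 5FU at 6 hours (-1.29 ± 0.08). Ace raised 3 and lowered 3 at 6 hours and raised 4 and lowered 3 at 24 hours, with Gdf15 at 3.15 in the latter.

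Chaperones of the endoplasmic reticulum and other genes of the unfolded protein response, with Herpud1 and Xbp1 among the 15, were mostly lower with 5FU and with Dox at 24 hours. With 5FU 14 of 15 were lower at 24 hours and 1 higher, against 3 lower and 2 higher at 6 hours. With Dox 4 were lower and 5 higher at 6 hours, and 10 lower and 4 higher at 24 hours. Hspa5 (BiP), the main such chaperone, was 461.3 to 495.1 CPM with 5FU at 24 hours against 610 to 886.2 CPM in DMSO1, and 316.9 to 370.4 CPM with Dox against 772 to 895.5 CPM in DMSO2 (-1.30 ± 0.07). Sdf2l1 fell with 5FU at 24 hours (-1.48 ± 0.14), Herpud1 with Dox at 6 hours (-1.34 ± 0.07) and Pdia4 with Dox at 24 hours (-1.34 ± 0.06). With Ace 5 were higher and 1 lower at 6 hours and 5 lower and none higher at 24 hours.

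Slc7a11 is also a target of NRF2, the factor of the oxidative stress response, and the other 9 NRF2 targets are given beside it. With 5FU 5 of the 9 were higher at each time and none lower, where Slc7a11 was lower. With Ace 6 were higher at 6 hours and 8 at 24 hours and none lower, where Slc7a11 was not called and then lower. Dox raised 2 and lowered 3 at 6 hours, and raised 7 and lowered 1 at 24 hours, where Slc7a11 was lower and then higher. Srxn1 was 18.04 to 36.1 CPM with Dox at 24 hours against 2.28 to 3.93 CPM in DMSO2 (3.19 ± 0.17), and Gclc (2.92 ± 0.07), Nqo1 (2.66 ± 0.10) and Txnrd1 (2.06 ± 0.06) rose with it.

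Markers of cells other than cardiomyocytes moved with the same drugs, as measured facts beside the values above. At 24 hours 4 of 5 endothelial markers were lower with 5FU, 3 with Ace and 5 with Dox, and 3, 6 and 5 of 6 macrophage markers, with 1 macrophage marker higher with Dox. The summed endothelial level was 18.9 to 42.7 CPM with Dox at 24 hours and 229 to 297.9 CPM in DMSO2. Cardiomyocyte markers themselves were lower in 8 of 9 with Dox at 24 hours, with a summed level of 20090 to 25820 CPM against 33590 to 42040 CPM, and higher in 1, Nppa (3.52 ± 0.17). Of 6 smooth muscle and pericyte markers, 2 were higher and 4 lower with 5FU at 24 hours, none higher and 4 lower with Ace, and 2 higher and 3 lower with Dox. Proliferation markers were higher in 6 of 6 with Ace at 24 hours, and at 6 hours lower in 4 of 6 with 5FU, 4 with Dox and 3 with Ace (Top2a, Ccnb1 and Cdk1), with none higher. The part of these shifts in the levels of the 10 genes was not tested.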

How the data were processed

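RNA from 65 cultures was sequenced after polyA selection. The authors quantified reads with kallisto 0.46.0 against rat Ensembl transcripts, summed them to Entrez genes with tximport and removed genes with consistently low counts, and they deposited the estimated counts per gene as whole numbers. A workbook of the authors' own fold changes and p-values was not used. Symbols for 14009 of the 14554 genes came from RefSeq (GRCr8). Counts were scaled by TMM and fitted with edgeR 4.0.16 (quasi-likelihood, R 4.3.3) in 1 model of 10 groups with 18 contrasts, with no further filter, and genes were called at an FDR below 0.01. CPM are TMM-scaled, and log2 CPM used a prior count of 2. Alternatives were DESeq2 1.42.0, its size factors, library size only, filters, the compared groups only, other thresholds and leaving out libraries. The test was tried first on simulated counts. The members and lists were chosen with earlier results of these data known. All 10 genes were named, with every kinase and ATF4 partner, Ppp1r15a, up to 4 genes of each other list by size of change, and the 3 genes most like each member. Nck1 and Dnajc3 were named only to describe their list. Acta2 and Nppb were chosen after their values were seen.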

Additional observations from a re-analysis of the deposited data

Results flagged for a closer look

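Of 100 sets of 1 gene in 1 group, 9 held a library far from the others of its group by Dixon's test, where chance flags about 1 in 20. They were Atf4 in library 7 of DMSO2 (210.1 CPM) and library 4 of Dox (93.2 CPM) at 6 hours, Trib3 in library 6 of 5FU at 24 hours (17.2 CPM), Chac1 in library 7 of DMSO2 at 6 hours (30.4 CPM), Psat1 in library 6 of Ace at 6 hours (54.5 CPM), Shmt2 in library 1 of 5FU at 6 hours (165.1 CPM) and library 1 of DMSO1 at 24 hours (53.4 CPM), Mthfd2 in library 7 of Dox at 24 hours (12.2 CPM) and Slc7a5 in library 1 of DMSO1 at 24 hours (71.0 CPM).

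The effect of a drug differed between 24 and 6 hours, by edgeR's test of the difference itself, in 16 of 30 cases. Of all genes, 19.2% were called lower for 5FU and 6.06% for Ace, and for Dox 34% were called higher and 30.8% lower. For 5FU the difference in log2 fold change was -0.50 for Atf4, -0.57 for Trib3, -0.73 for Chac1, -0.42 for Psat1, -0.80 for Phgdh and -0.94 for Slc7a11. For Ace it was -0.68 for Slc7a5. For Dox it was 0.71 for Atf4, 1.09 for Trib3, 1.17 for Chac1, 1.04 for Slc7a11 and 0.90 for Slc7a5, and -0.40 for Psat1, -0.41 for Phgdh, -0.52 for Shmt2 and -1.28 for Mthfd2.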

How the results depend on the processing

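No paired analysis was possible because the columns carry no replicate numbers. Requiring a log2 fold change of at least 1 left, of the 10 genes, 0 with 5FU, 3 with Dox at 6 hours, and 4 with 5FU, 0 with Ace and 1 with Dox at 24 hours. It left 0 for DMSO1 against DMSO2 at 6 hours and 1 for the controls over time. For 24 minus 6 hours it left 0 (5FU), 0 (Ace) and 4 (Dox). Between drugs it left 2 (Dox minus 5FU), 0 (Ace minus 5FU) and 3 (Dox minus Ace) at 6 hours and 2, 2 and 1 at 24 hours. At an FDR below 0.1 the calls were 1 for Ace at 6 hours, 7 for Ace at 24 hours, 8 and 1 for DMSO1 against DMSO2 at 6 and 24 hours, and 2 for Ace, 24 minus 6 hours. For these calls, and for the differences of effects above, no share of all genes is given, so they show only how calls moved. Ace at 6 hours had 1 call with the compared groups only and 1 without the 5 libraries that stood apart, an alternative chosen after seeing the data. Of all genes, 35.2% were called for Ace at 6 hours without those 5 libraries. Ace at 24 hours had 1 with library size only. DMSO1 against DMSO2 at 6 hours had 5 with the DESeq2 Wald test, 7 without the 5 libraries and 3 to 5 on leaving out 1 library, with 5 without library 4 of DMSO1.

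Only uncalled values changed sign. With library size only these were Asns for Ace (-0.000864), Phgdh for Dox (-0.0705) and Mthfd2 for Dox (-0.0314) at 6 hours, Trib3 (0.0270), Psat1 (0.0160) and Shmt2 (0.0864) for Ace, 24 minus 6 hours, and at 6 hours Slc7a5 for Dox minus 5FU (-0.0857), Phgdh (0.00146) and Shmt2 (0.0390) for Ace minus 5FU and Mthfd2 for Dox minus Ace (-0.0483). Without the 5 libraries Phgdh (0.00234) and Shmt2 (0.0521) changed sign for Ace minus 5FU at 6 hours. Shmt2 for Dox minus Ace at 24 hours was 0.0147 with DESeq2 size factors, 0.0152 with the DESeq2 Wald test and 0.0418 without the 5 libraries. On leaving out 1 library, the ranges that crossed 0 were -0.0712 to 0.0175 for Trib3 in DMSO1 against DMSO2 at 6 hours, -0.203 to 0.0372 for Mthfd2 with 5FU, 24 minus 6 hours, and for Ace, 24 minus 6 hours, -0.126 to 0.00442 for Trib3, -0.0511 to 0.0406 for Shmt2 and -0.0253 to 0.0640 for Mthfd2. For Dox minus 5FU at 6 hours they were -0.226 to 0.0249 for Slc7a11 and -0.0340 to 0.0558 for Slc7a5, for Ace minus 5FU at 6 hours -0.0391 to 0.0947 for Shmt2, for Dox minus Ace at 6 hours -0.0467 to 0.173 for Mthfd2, and at 24 hours -0.0823 to 0.0266 for Phgdh and -0.0543 to 0.0569 for Shmt2. The cause of these changes was not tested.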
